A study of Homo sapiens with 18 samples.

Results

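This report describes 10 genes of the epithelial-mesenchymal transition in HCT116 cells grown to increasing density: the transcription factors ZEB1, ZEB2, SNAI1, SNAI2 and TWIST1, the mesenchymal products VIM, CDH2 and FN1, and the epithelial regulators GRHL2 and ESRP1. They were chosen by symbol, and all 10 had a row of their own among the 38055 genes of the whole transcriptome table. HCT116 is an established human colorectal carcinoma line, and every library came from wild-type cells with no other treatment, harvested whole. Day 3 cultures were at 50% confluency and day 5 cultures at 250%, with 3 biological replicates of RNAseq on each day. The study also sequenced small RNA in 3 replicates on day 3, on day 5 and on day 7, when cells had reached 400% confluency by the labels, and whole transcriptome values of day 7 were not analysed here. Time in culture and density rose together in this design, so the 2 cannot be told apart.

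In the epithelial-mesenchymal transition, cells held together by E-cadherin lose their junctions and take on the shape, matrix and motility of mesenchymal cells. Transcription factors of the ZEB, SNAI and TWIST families drive it, largely by binding E-box sequences near epithelial genes such as CDH1, which encodes E-cadherin, and repressing them. GRHL2 and ESRP1 act on the epithelial side, GRHL2 as an activator of junction genes and a repressor of ZEB1, ESRP1 as a splicing factor that makes the epithelial forms of CD44, FGFR2 and other transcripts. The miR-200 family closes a loop, since its miRNAs target ZEB1 and ZEB2 while the ZEB proteins repress the miR-200 genes.

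Values are reads per gene divided by a size factor for each library, called normalized values below, and the reads on genes ranged from 27470978 in day 3 replicate 3 to 56689369 in day 3 replicate 2. Genes that reached a normalized value of 10 in 3 or more of the 6 libraries were tested with limma on log2(value + 1), which understates the change of low genes, and p-values were adjusted by the Benjamini-Hochberg method over all genes tested. A gene is said to have risen or fallen where the adjusted p was under 0.05. Of the 20129 genes tested, 56.9% passed this threshold, 29.3% higher and 27.6% lower on day 5, with a median log2 difference of 0.01. Of the 10 members 8 were tested and 5 passed, 3 higher and 2 lower (ZEB1, ZEB2, FN1, GRHL2 and ESRP1), which is a share near that background. The libraries of the 2 days did not overlap for the same 5 members, and for 65.0% of all genes tested. What follows is therefore about which members moved, in which direction and by how much, and not about their number. All 7 epithelial markers listed were present in every library, EPCAM and the keratins KRT8, KRT18 and KRT19 at 6637 or more, CLDN7 and CDH1 at 841 and 572 or more, and CDX2 lowest, from 208. Markers of other cells were low, since the summed value of the 5 fibroblast markers in the table lay between 34.6 and 49.6 on day 3 and between 31.5 and 63.2 on day 5, and DCN and CDH5 were at 0 or near it. PTPRC and CD3E, of leukocytes, were both below 5, while the low endothelial markers VWF and KDR and the leukocyte marker LYZ passed the test as higher, at day 5 means of 32.1, 24.9 and 14.2. KDR and LYZ reached the minimum value in only 1 and 0 of the day 3 libraries, so their selection favoured a rise.

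**Figure D1:**
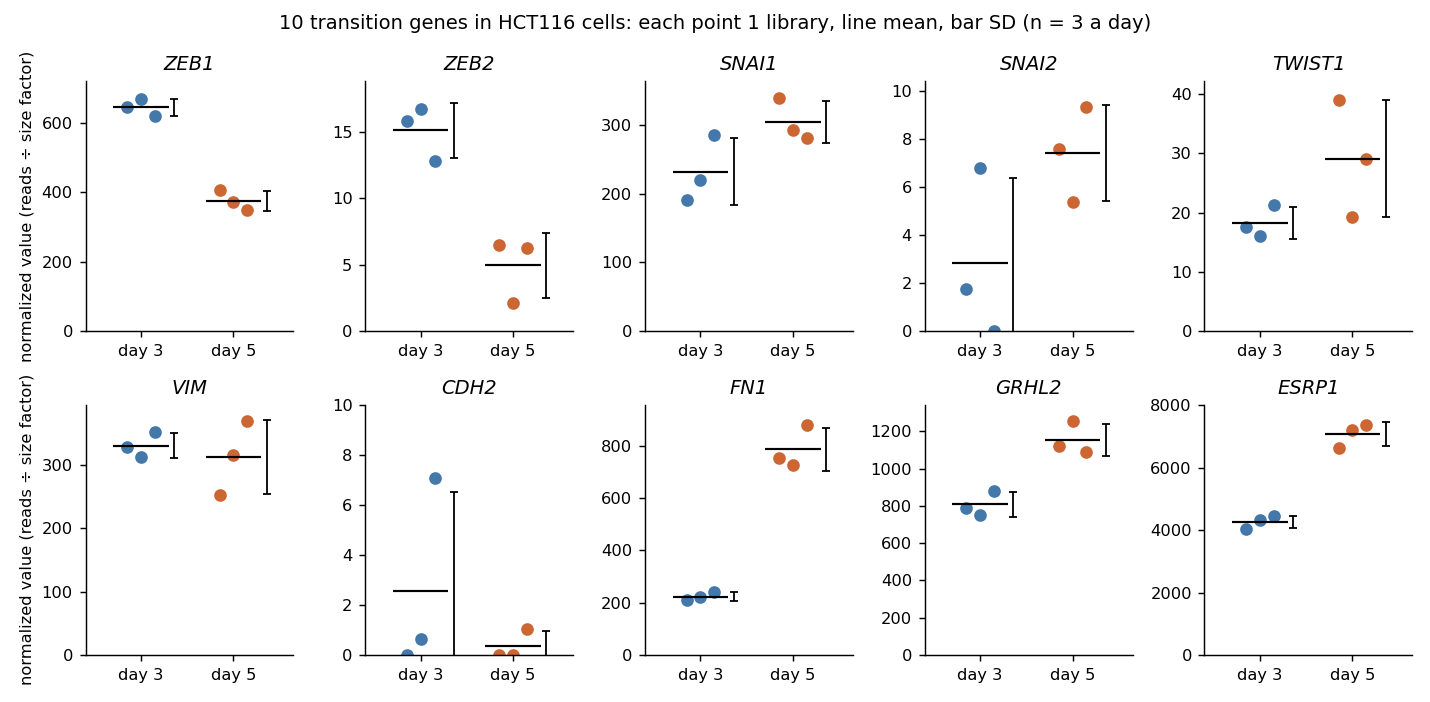
Normalized value (reads divided by the library's size factor, linear axes from 0) of each of the 10 members in the 3 day 3 libraries (blue) and the 3 day 5 libraries (orange); lines are means and bars are SD. ZEB1 and ZEB2 lie lower on day 5, FN1, GRHL2 and ESRP1 lie higher, and the days overlap in the other 5 panels.

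ZEB1 (ENSG00000148516, chr10:31318495-31529814, plus strand, GRCh38), a zinc finger repressor of CDH1 and polarity genes, fell. Its normalized values were 646, 669 and 619 in the day 3 libraries and 406, 372 and 348 in those of day 5. The lowest day 3 library was far above the highest day 5 library. The means were 645 ± 25.01 and 375 ± 28.97 (SD, n = 3), 1.72-fold lower on day 5, with a log2 difference of -0.78 (SE 0.09, 95% CI -0.9997 to -0.57, limma adjusted p = 0.00077). It passed in all 13 alternative fits, whose log2 differences ran from -0.84 to -0.72 and whose adjusted p reached 0.0137 when the deepest and the shallowest library were both left out.

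ZEB2 (ENSG00000169554, chr2:144364364-144521057, minus strand), the paralog of ZEB1, was present only at a trace. The day 3 libraries held 18, 27 and 9 of its reads, and the day 5 libraries 6, 2 and 6. As normalized values these were 15.8, 16.7 and 12.8 against 6.51, 2.14 and 6.21, and again the days did not overlap. The log2 difference was -1.53 (SE 0.35, limma adjusted p = 0.0117). ZEB2 passed the minimum value through its day 3 libraries alone, so its selection favoured a fall, and it drops out of the test when any day 3 library is left out. The 9 alternatives that kept it gave adjusted p from 0.00324 to 0.0406.

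The ZEB transcripts carry repeated matches to the miR-200 seeds. The mature sequences below are from RefSeq (GRCh38.p14), with the seed, bases 2 to 8, in capitals, and they fall into 2 groups by that seed. The group of miR-200b-3p, miR-200c-3p and miR-429 pairs with CAGTATT, and that of miR-200a-3p and miR-141-3p with CAGTGTT.
miR-200b-3p: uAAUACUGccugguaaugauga
miR-200c-3p: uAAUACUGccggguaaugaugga
miR-429: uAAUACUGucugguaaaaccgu
miR-200a-3p: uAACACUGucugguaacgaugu
miR-141-3p: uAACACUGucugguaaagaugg

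In the 3′UTR of the ZEB1 canonical transcript (2540 bases, GENCODE release 44) there were 6 matches to CAGTATT and 3 to CAGTGTT. Among 2407 other 3′UTRs within 20% of that length, 26.4% held at least 1 CAGTATT and the highest number was 4. In the ZEB2 3′UTR (5370 bases) there were 5 and 4 matches, and of 1168 3′UTRs of like length 45.6% held CAGTATT, with at most 4. The CAGTGTT matches were less unusual, being present in 28.1% and 51.4% of the same 3′UTRs and reaching 4 and 7 in some. The 6 CAGTATT sites of ZEB1 are shown with their GRCh38 coordinates, on the strand of the transcript and with the match in capitals, since they are the feature that sets this 3′UTR apart from others of its length.
ZEB1 chr10:31527622-31527650: ttttatcttatCAGTATTatcactcttat
ZEB1 chr10:31527716-31527744: taaatccgcttCAGTATTttattatgttt
ZEB1 chr10:31528145-31528173: gtgccatttctCAGTATTttcaaggctct
ZEB1 chr10:31528496-31528524: tttttacctatCAGTATTattttatttct
ZEB1 chr10:31528566-31528594: ttcaaacctggCAGTATTaatacccttct
ZEB1 chr10:31529217-31529245: ttcatcattatCAGTATTttctttggaaa

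The 5 sites of ZEB2, on the minus strand, are shown for comparison.
ZEB2 chr2:144389042-144389070: ctaccatacatCAGTATTtttattattat
ZEB2 chr2:144388979-144389007: ctacaatgcatCAGTATTatgattcctct
ZEB2 chr2:144388621-144388649: agcacccatgtCAGTATTagaagaatagg
ZEB2 chr2:144388536-144388564: attaattttgtCAGTATTacaccaaactg
ZEB2 chr2:144388405-144388433: actgtagtgtaCAGTATTatagttcttca

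Of the other members, FN1 held 2 CAGTATT matches in its 3′UTR of 690 bases, where 6.42% of like 3′UTRs held any, SNAI2 held 1, and ESRP1 held 1 of each kind. GRHL2 held 1 CAGTGTT, and SNAI1, TWIST1, VIM and CDH2 held neither. A match is a string of letters and not a measured site. ZEB1, with 6 CAGTATT matches, fell and FN1, with 2, rose, and whether miR-200 miRNAs had a part in either change was not tested.

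The miR-200 family itself was measured in the small-RNAseq libraries as log2 values. The methods name TMM-normalized counts and edgeR, but the table states no unit, so only differences are read. From day 3 to day 5, over which ZEB1 fell, 4 of the 5 mature 3p miRNAs did not pass the test. The log2 differences were -0.02 (SE 0.13) for miR-200a-3p, 0.11 (SE 0.13) for miR-200c-3p, -0.01 (SE 0.11) for miR-141-3p and -0.16 (SE 0.14) for miR-429. Only miR-200b-3p passed, and it fell, by 0.72 on the log2 scale (SE 0.13, limma adjusted p = 0.0097), a call that was lost when the filter on low values was dropped. Its values were 11.26, 11.35 and 10.91 on day 3 and 10.44, 10.50 and 10.42 on day 5, with no overlap, in a comparison where 6.31% of the 539 miRNAs tested were called lower. In the other 4 the days overlapped, and day 3 replicate 3 was the lowest of its day for each of the 5. Of the family's 5p arms 4 were tested between these days and 0 passed, with log2 differences from -0.12 to 0.19.

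Between day 5 and day 7 all 5 rose, by log2 differences of 0.90 (SE 0.09) for miR-141-3p, 0.86 (SE 0.11) for miR-200a-3p, 0.69 (SE 0.12) for miR-429, 0.68 (SE 0.11) for miR-200b-3p and 0.68 (SE 0.11) for miR-200c-3p. The limma adjusted p-values ran from 0.000173 to 0.00195, and 39.3% of the 567 miRNAs tested were called higher. The size of this rise depends on the scale, because the median of all miRNAs tested was 0.26 as deposited and -0.24 when libraries were scaled to their own totals of miRNA. On the library totals the 5 rose by 0.19 to 0.41, and all 5 still passed, where 10.2% of the miRNAs tested were called higher. Relative to the median they stood 0.42 to 0.64 above it on the deposited scale and 0.43 to 0.65 on the library totals. Against day 3, with 45.3% of 559 miRNAs called higher, day 7 was higher for miR-141-3p (0.89), miR-200a-3p (0.84), miR-200c-3p (0.78) and miR-429 (0.53), while miR-200b-3p was at -0.04 (limma adjusted p = 0.834). On the library totals the same differences were 0.39, 0.34, 0.28 and 0.03, of which that of miR-429 no longer passed, and miR-200b-3p was lower, at -0.54 (limma adjusted p = 0.00102), on a scale where 15.6% of the miRNAs tested were called higher and 41.6% lower. The comparisons with day 3 share its libraries, and no ZEB values of day 7 were analysed to set beside the rise.

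**Figure D2:**
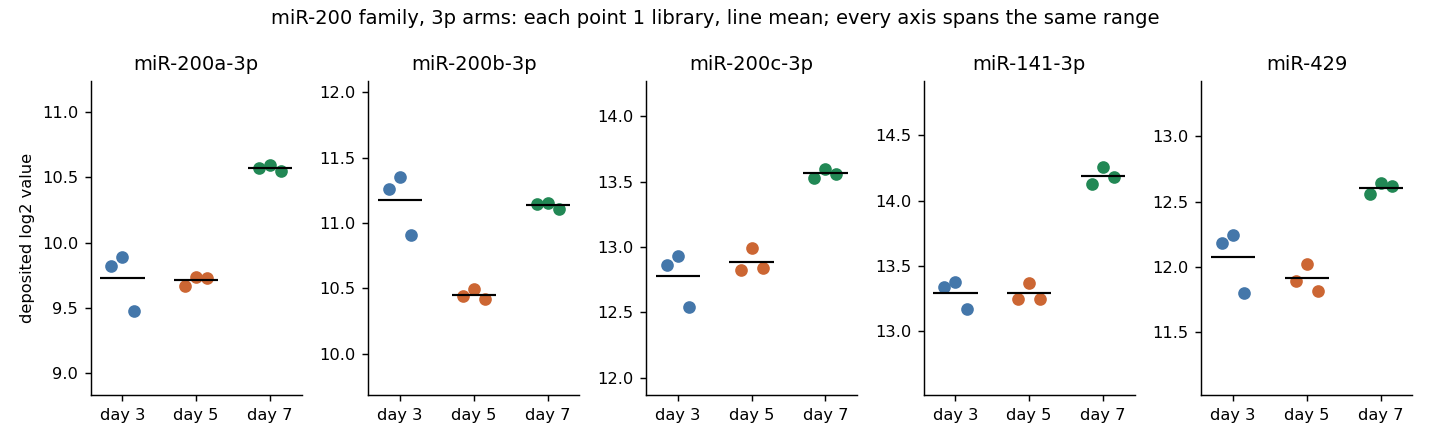
Deposited log2 value of the 5 miR-200 family 3p miRNAs in 3 small-RNAseq libraries a day on days 3, 5 and 7; points are libraries, lines are means, and every axis spans the same range around its own centre. All day 7 libraries lie above all day 5 libraries in each panel, and day 5 lies below day 3 without overlap only for miR-200b-3p.

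SNAI1 (ENSG00000124216, chr20:49982980-49988886, plus strand), a zinc finger repressor of CDH1, was expressed on both days. Its values were 191, 219 and 285 on day 3 and 338, 293 and 281 on day 5. Day 3 replicate 3, the library with the fewest reads, reached the day 5 range, so the days overlapped. The log2 difference was 0.41 (SE 0.17, 95% CI -0.0044 to 0.82, limma adjusted p = 0.0834), which did not pass. It did pass without day 3 replicate 3 (0.56, limma adjusted p = 0.0136), on library totals (0.47) and by DESeq2 and edgeR on the recovered reads (0.41 and 0.40), and over all 13 alternatives the adjusted p lay between 0.0136 and 0.204.

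SNAI2 (ENSG00000019549), the paralog known as Slug, was at the edge of detection, with 2, 11 and 0 reads on day 3 and 7, 5 and 9 on day 5. It reached the minimum value in none of the 6 libraries and was not tested. The normalized values were 1.76, 6.80 and 0 against 7.59, 5.36 and 9.32, so that day 3 replicate 2, the library with most reads, lay within the day 5 range. A count of 0 in day 3 replicate 3 allows up to 3 reads, a normalized value of 4.25. Without the filter the log2 difference was 1.57 (limma adjusted p = 0.204), so that no difference was detectable at this depth.

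TWIST1 (ENSG00000122691, chr7:19020991-19117636, minus strand), a basic helix-loop-helix factor, was low, at 20, 26 and 15 reads on day 3 and 36, 18 and 28 on day 5. The normalized values were 17.6, 16.1 and 21.3 against 39.0, 19.3 and 28.99, so that 1 day 5 library lay within the day 3 range. The log2 difference was 0.60 (SE 0.26, 95% CI -0.04 to 1.23, limma adjusted p = 0.0954). Without that library, day 5 replicate 2, it was 0.85 (limma adjusted p = 0.0147), the only alternative of 13 in which TWIST1 passed.

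VIM (ENSG00000026025, chr10:17228241-17237593, plus strand), the intermediate filament protein of mesenchymal cells, was present in every library at a level that did not separate the days. Its values were 327, 312 and 352 on day 3 and 253, 315 and 369 on day 5, the day 5 libraries enclosing those of day 3. The log2 difference was -0.10 (SE 0.15, 95% CI -0.47 to 0.27, limma adjusted p = 0.608), so the interval leaves room for changes in either direction of up to that size. Without day 5 replicate 1 the sign turned, to 0.05. Among the other 7 intermediate filament genes listed, 6 were tested and 5 rose, beside 29.3% of all genes tested. The rises were led by NES (log2 difference 1.85), which encodes nestin, and LMNA (1.597), which encodes lamins A and C.

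CDH2 (ENSG00000170558, chr18:27932879-28177946, minus strand), which encodes N-cadherin, was at the edge of detection. Its reads were 0, 1 and 5 on day 3 and 0, 0 and 1 on day 5, and 5 of these 7 reads fell in 1 library, day 3 replicate 3. It was not tested. A count of 0 allows up to 3 reads, which corresponds to normalized values of 2.63 to 3.25 in the 3 libraries where none was found, while the 5 reads of day 3 replicate 3, a value of 7.09, lay above that limit.

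FN1 (ENSG00000115414, chr2:215360440-215436073, minus strand), which encodes the matrix glycoprotein fibronectin, had the largest rise of the members. It went from 209, 221 and 241 on day 3 to 756, 726 and 879 on day 5, with every day 5 library at least 3 times the highest of day 3. The means were 224 ± 16.2 and 787 ± 81.3 (SD, n = 3), a 3.50-fold rise and a log2 difference of 1.81 (SE 0.11, 95% CI 1.55 to 2.07, limma adjusted p = 0.000187). Of all genes tested, 98.2% had a lower log2 difference. Within a library, where no scaling between libraries enters, FN1 over VIM was 0.638 to 0.707 on day 3 and 2.30 to 2.99 on day 5.

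GRHL2 (ENSG00000083307), the grainyhead-like activator of epithelial genes, rose. Its values were 791, 752 and 882 on day 3 and 1124, 1254 and 1090 on day 5, without overlap. The log2 difference was 0.52 (SE 0.10, 95% CI 0.27 to 0.76, limma adjusted p = 0.0059), 1.43-fold. Set against ZEB1 in the same library, GRHL2 over ZEB1 was 1.22, 1.12 and 1.42 on day 3 and 2.77, 3.37 and 3.13 on day 5, so the balance of these 2 opposed factors moved 2.46-fold.

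ESRP1 (ENSG00000104413), the epithelial splicing regulator, was the most abundant member per length and rose as well. It went from 4047, 4317 and 4438 to 6636, 7216 and 7377, with no overlap, a log2 difference of 0.73 (SE 0.08, 95% CI 0.53 to 0.93, limma adjusted p = 0.000788) and 1.66-fold. Its paralog ESRP2 rose by the same log2 difference of 0.73 (SE 0.09), and ESRP1 over ESRP2 stayed between 4.02 and 4.28 on day 3 and between 3.95 and 4.38 on day 5. Of 10 genes known to be spliced under ESRP1 control, 9 rose in total level and none fell. Of all genes tested, 29.3% rose and 27.6% fell. The list's median log2 difference was 0.54. CD44 (1.13), SCRIB (1.01) and CTNND1 (0.92) were among the largest. The table gives a single value per gene, so which of their spliced forms changed was not measured.

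**Figure D3:**
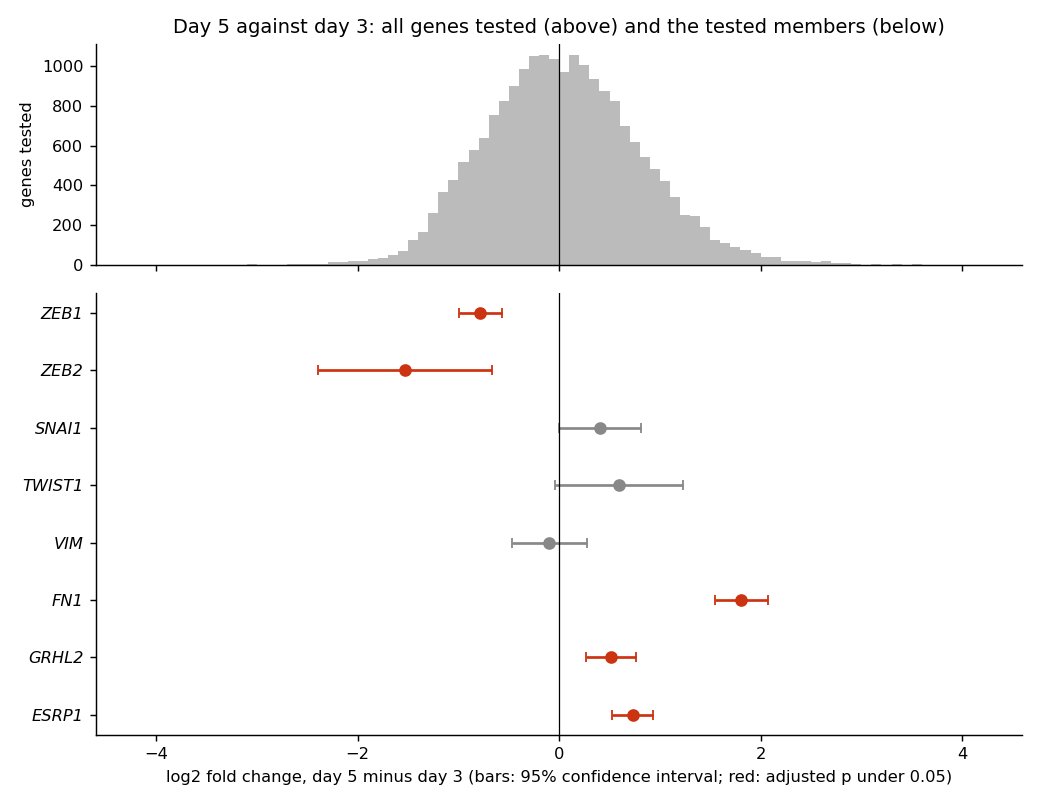
Above, the number of genes tested by log2 difference between day 5 and day 3, in bins of 0.1; below, the log2 difference of the 8 members tested with its 95% confidence interval, red where the adjusted p was under 0.05. FN1 lies at 1.81 and ZEB2 at -1.53, in the tails of the distribution, while ZEB1, GRHL2 and ESRP1 lie within its body.

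Levels of different genes can be set against each other only per length, and the values in this paragraph are means of the normalized value per kilobase of exon (union of exons, GENCODE release 44). On day 3 the order was ESRP1 (875), SNAI1 (136), GRHL2 (134), ZEB1 (74.6), VIM (63.8), FN1 (13.0), TWIST1 (9.16), SNAI2 (0.869), ZEB2 (0.577) and CDH2 (0.299). SNAI1 and GRHL2 overlapped across libraries, as did SNAI2 with ZEB2 and ZEB2 with CDH2, and the other neighbours did not. On day 5 it was ESRP1 (1452), GRHL2 (191), SNAI1 (178), VIM (60.3), FN1 (45.7), ZEB1 (43.4), TWIST1 (14.6), SNAI2 (2.26), ZEB2 (0.189) and CDH2 (0.0402), where GRHL2 overlapped SNAI1, VIM overlapped FN1, FN1 overlapped ZEB1 and ZEB2 overlapped CDH2. The length matters to this order. With the canonical transcript VIM moved to the third place on day 3, at 153, above SNAI1 at 136 and ZEB1 at 109. Its day 3 libraries, at 145 to 163, overlapped those of SNAI1 (112 to 167) and GRHL2 (144 to 169). On day 5 VIM (145), FN1 (93.8) and ZEB1 (63.2) kept their order but no longer overlapped.

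The genes whose pattern was most like that of FN1, by Pearson's r of log2(value + 1) over the 6 libraries among 12715 genes averaging at least 100, included ASAP1 (r = 0.9996) and FOXO6 (0.9995). For ESRP1 they were KIAA0040 (0.9992), ACTR1B (0.9991) and PGK1 (0.9990). These values describe the libraries and are not distinctive, because the 6 points form 2 groups of 3 and 822 genes reached r = 0.99 with FN1 and 684 with ESRP1.

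The list of epithelial genes known to be under ZEB1 or GRHL2 control had the highest median of the 12 lists drawn up around the members. These lists were chosen with earlier results of these data known, so the rank is a description only. Of 21 such epithelial genes, all tested, 19 rose and none fell, beside 29.3% and 27.6% of all genes tested. The list's median log2 difference was 1.57, beside 0.01 for all genes. CDH1, encoding E-cadherin, went from 572, 669 and 672 on day 3 to 3787, 4024 and 4009 on day 5, 6.19-fold (log2 difference 2.63, SE 0.09, limma adjusted p = 0.0001). SPINT1 (2.11), encoding an inhibitor of the surface protease matriptase, and CLDN4 (2.04), encoding a claudin, were also among the largest. EPCAM, at 0.00, and RAB25, at 0.32, did not pass. Within each library CDH1 over ZEB1 was 0.885, 0.999 and 1.08 on day 3 and 9.34, 10.8 and 11.5 on day 5, a 10.7-fold shift. P-cadherin (CDH3), a further classical cadherin, rose too (2.03), but less than CDH1, so that CDH3 over CDH1 went from 2.20 to 2.35 on day 3 to 1.46 to 1.53 on day 5.

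ZEB and SNAI proteins bind the E-box CACCTG, which reads CAGGTG on the other strand. Windows of 300 bases around RefSeq start sites were searched on both strands, and 20.6% of 35116 windows of all genes held at least 1 match. Of the 21 epithelial genes 12 had a window, and CDH1 was not among them. The 12 had 15 windows, of which 10 held the motif, a share of 66.7%. But the list is made of genes known for this control and is not independent of the motif. CLDN7, which encodes a tight junction claudin and rose by a log2 difference of 1.57, and CRB3, which encodes the apical polarity protein Crumbs3 and rose by 0.76, had most, with 5 each. ZEB1 itself held matches in 2 of its windows, and the remaining windows of the 5 members with an entry, among them all of VIM, CDH2 and FN1, held none. A stretch of each is printed with the motif in capitals, on the strand of the gene in GRCh38.p14.
CLDN7 chr17:7262475-7262504: tatactCAGGTGcgcccCACCTGtccgccc
CRB3 chr19:6464118-6464147: ccgttaCAGGTGcgcccacagcgcggcccc
ZEB1 chr10:31319125-31319154: gtaaacCAGGTGcggtggggaggggggagg

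The other factors that hold cells epithelial rose in most cases. Of 15 listed 12 were tested, 9 rose and 1 fell, beside 29.3% and 27.6% of all genes tested. The list's median log2 difference was 0.94. GRHL3, a paralog of GRHL2, had the largest value (3.90), from 3.51, 4.94 and 9.92 on day 3 to 101, 121 and 76.6 on day 5, and it passed the minimum value only on day 5. ELF3 (2.50) and KLF4 (2.16), activators in gut epithelium, and OVOL1 (1.76), a repressor of ZEB1, followed. Its relative OVOL2 went the other way, from 28.97, 25.3 and 29.8 to 19.5, 11.8 and 13.5 (log2 difference -0.89, SE 0.19, limma adjusted p = 0.00824), and GRHL1 (0.08) and EHF (0.19) did not pass.

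Most other mesenchymal products that could be tested rose as well. Of 23 other mesenchymal products 18 were tested, and 13 rose while 2 fell, beside 29.3% and 27.6% of all genes tested. The list's median log2 difference was 0.96. Among the largest rises were L1CAM (2.38), an adhesion molecule of invasive fronts, MMP14 (1.86), a membrane matrix protease, and ITGA5 (1.80), the alpha chain of the fibronectin receptor, whose change was close to that of FN1. SPARC (-1.06) and TPM1 (-0.53) fell. CDH11, POSTN, LOX, MMP2 and TNC averaged below 10 on both days and were not tested. Of the other transcription factors of the transition, 11 of 16 were tested, 7 rose and 2 fell (median 0.87), beside the same shares of all genes. SOX9 (2.24), a progenitor factor of gut crypts, FOXC1 (1.16), SNAI3 (1.08) and ETS1 (1.06) led the rises. TCF12 (-0.35) and ID3 (-0.59) fell, and PRRX1, TCF4, GSC and FOXC2 stayed below the minimum value.

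**Figure D4:**
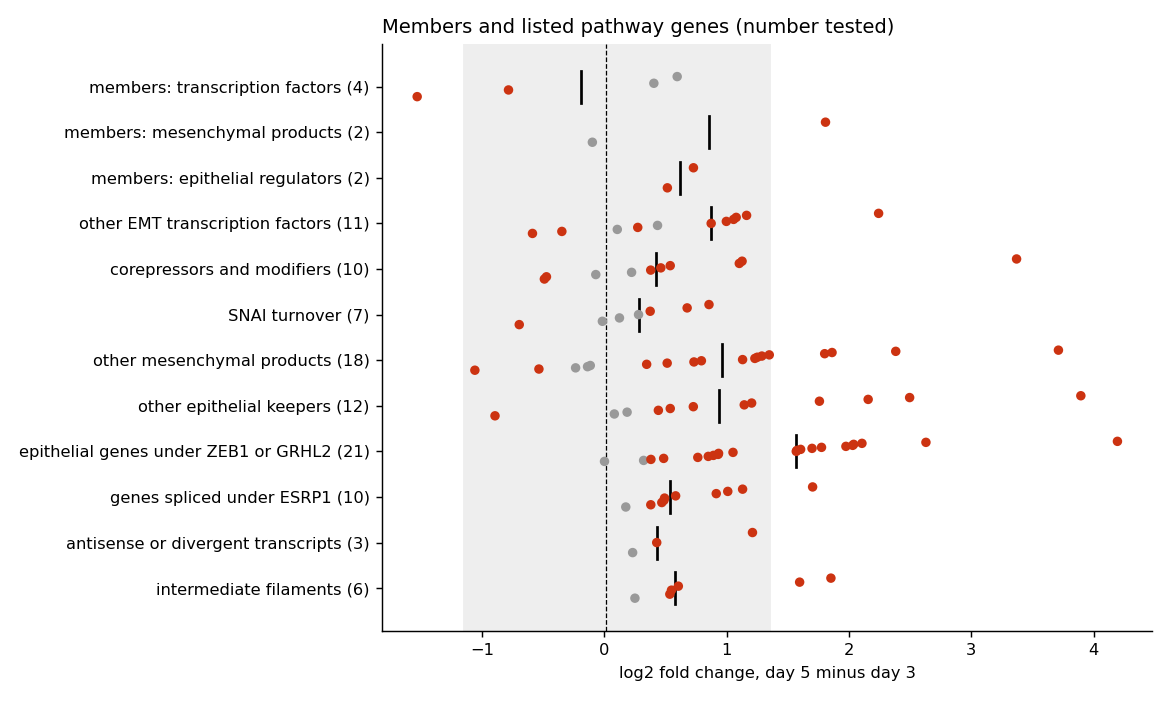
Log2 difference between day 5 and day 3 of each tested gene in 12 lists around the members, with the number tested in brackets; red points passed at an adjusted p under 0.05, black bars are list medians, the dashed line is the median of all genes tested and the grey band runs from their 5th to their 95th percentile. The list of epithelial genes under ZEB1 or GRHL2 has the highest median, at 1.57, while the transcription factors among the members lie on both sides of 0. The lists were chosen with earlier results of these data known.

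The enzymes and partners through which ZEB and SNAI factors work were all expressed. Of 10 corepressors and modifiers 6 rose and 2 fell, beside 29.3% and 27.6% of all genes tested. The list's median log2 difference was 0.42. LOXL2, a lysyl oxidase relative known as a partner of SNAI1, stood apart at 3.37, with 263, 286 and 323 on day 3 and 2584, 3173 and 3298 on day 5. SMARCA4 (1.13), the BRG1 ATPase that works with ZEB1, RCOR1 (1.104) and CTBP1 (0.54), the corepressor of ZEB proteins, rose, and HDAC2 (-0.49) and EZH2 (-0.47) fell. Of 10 genes of SNAI protein turnover 7 were tested, and 3 rose and 1 fell (median 0.28). That share is near the 56.9% of all genes tested that passed. The 3 that rose were FBXO11 (0.86), GSK3B (0.68), the kinase that marks SNAI1 for degradation, and BTRC (0.38), its ubiquitin ligase adaptor. FBXL5 (-0.69) fell. Protein levels were not measured.

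ZEB1-AS1 is a long noncoding RNA transcribed away from the ZEB1 start on the opposite strand (chr10:31206278-31320447, minus strand, overlapping ZEB1 from 31318495 to 31320447). It moved against ZEB1. Its values were 98.3, 87.2 and 109 on day 3 and 125, 142 and 129 on day 5 (log2 difference 0.43, SE 0.11, limma adjusted p = 0.0182). The reads were counted on the reverse strand only, so the 2 transcripts are separated. ZEB1 over ZEB1-AS1 was 5.68 to 7.68 on day 3 and 2.61 to 3.25 on day 5. SNAI3-AS1 rose (1.21), and VIM-AS1, at 0.23, did not pass.

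**Figure D5:**
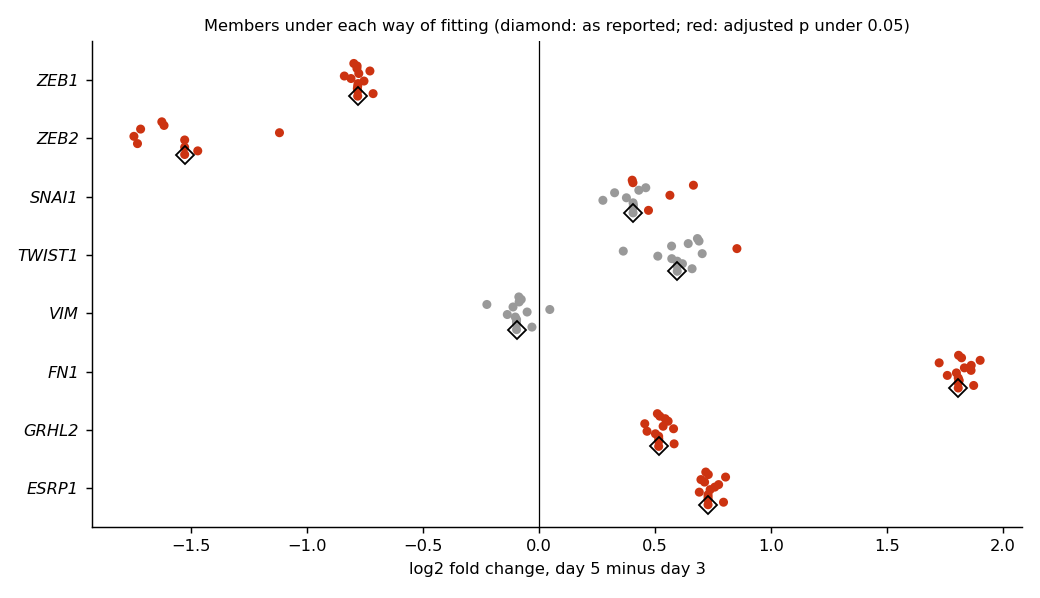
Log2 difference between day 5 and day 3 of the 8 tested members under the reported fit (diamond) and each alternative in which the member was tested; red points passed at an adjusted p under 0.05. ZEB1, FN1, GRHL2 and ESRP1 passed in all 13 alternatives, SNAI1 in 5 of 13, TWIST1 in 1 of 13 and VIM in none. ZEB2 passed in the 9 that kept it and was not tested wherever a day 3 library was left out.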

How the data were processed

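RNA from whole HCT116 cells was measured by ribosomal RNA-depleted, stranded RNAseq and by small-RNAseq. The authors mapped the former to ENSEMBL hg38 genes in CLC Genomics Workbench, on the reverse strand only, and whether intron reads were counted is not given in the sources used here. The deposited signal per gene was whole reads divided by a single factor per library, so reads were recovered for 100% of values, within 0.001 reads. For miRNAs, the authors mapped trimmed reads to mature and hairpin sequences and deposited log2 values, made with TMM and edgeR by the methods; the reads behind each value cannot be read from them. Columns of the authors' comparisons between days, with fold changes and their p-values, were not used.

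Groups followed the labels. limma 3.58.1 in R 4.3.3 was fitted to log2(signal + 1) over 6 libraries, and to the miRNA log2 values where the back-transformed value reached 10 in 3 libraries, with day 7 against day 5 from 1 fit over 9 libraries. DESeq2 1.42.0 and edgeR 4.0.16 on recovered reads were alternatives, as were library totals, no filter, a pseudocount of 0.1, a replicate block and leaving out each library. The RNAseq limma fit was tried on simulated data, where 194 of 19735 genes tested were changed 2-fold. It recovered 149 of them (76.8%) and made 12 false calls. Far fewer genes changed there than the 11450 called here. Limits from counts of 0 cover counting error only. The labels call the replicates biological without naming separate cultures, so intervals and p-values measure the spread between these libraries. limma had been set for the case of normalized RNAseq values.

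Members and lists were chosen with earlier results of these data known. The text names all members and, for each list, at most 4 genes with the largest changes past the threshold, and others singled out (CDH3, OVOL2, GRHL1, EHF, those that fell or did not pass) were chosen after their values were seen. Genes most like a member were the 3 with the highest r. Some genes that these rules name are not reported here.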

Additional observations from a re-analysis of the deposited data

Results flagged for a closer look

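The difference between day 7 and day 3 was not the same as that between day 5 and day 3 for any of the 5 miR-200 family 3p miRNAs, as tested by day 7 against day 5 in limma. The log2 difference was 0.86 for miR-200a-3p, 0.68 for miR-200b-3p, 0.68 for miR-200c-3p, 0.90 for miR-141-3p and 0.69 for miR-429. On library totals these fell to 0.37, 0.19, 0.19, 0.41 and 0.20, and each still passed. Of the 4 tested 5p arms of the family, 3 passed as higher on day 7 on the deposited scale and none on library totals, where 39.3% and 10.2% of all miRNAs tested were called higher. The size of the difference thus moved with the scale of the libraries, whose part in the result was not tested.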

How the results depend on the processing

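ZEB1, FN1, GRHL2 and ESRP1 kept their direction and passed in all 13 alternatives. All calls over genes stayed within 1.5 times the 11450 reported, except that a 2-fold minimum left 3589 genes, and 2 members, ZEB2 and FN1, of the 5. Leaving out each library in turn gave 9780 to 11300 genes and 4 to 6 members (ZEB2 was not tested without a day 3 library), and leaving out both the deepest and the shallowest library gave 5 members, SNAI1 in place of ZEB2. On recovered reads DESeq2 called 11131 genes and edgeR 12280, and each called 6 members, SNAI1 being added. Leaving out those 2 libraries, the comparison of day 7 with day 5 and the canonical length were added after the data were seen. VIM ranged from -0.23 to 0.046 without each library, turning only without day 5 replicate 1. For miRNAs, calls between days 5 and 3 were 80 as reported, 137 on library totals, 50 without the filter and 36 to 118 without each library. Between days 7 and 5 they were 251, and 164 without the filter. Near 0, the sign turned without single libraries for miR-200a-3p (-0.14 to 0.064), miR-141-3p (-0.068 to 0.034) and miR-200c-3p (-0.014 to 0.18) from day 3 to day 5, and for miR-200b-3p (-0.17 to 0.051) from day 3 to day 7. Without the filter, miR-200b-3p at -0.72 and miR-429 at 0.53 no longer passed in their comparisons with day 3. Dropping it changed both the number of miRNAs tested and the variances that limma estimated. The causes of these shifts were not tested.

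The labels do not say whether replicate numbers pair the samples, and correlations over 3 libraries a day cannot decide it. Deviations of same-numbered RNAseq libraries correlated at -0.011, 0.034 and 0.023. With a replicate block 10533 genes and the 5 members were called, and 71, 302 and 254 miRNAs, and no call of a member or miR-200 miRNA changed. In small RNA each day 3 library correlated best with its own number on day 5, at 0.087 to 0.116. Same-numbered libraries of day 3 and day 7 correlated at 0.092, -0.006 and 0.027. Those of day 5 and day 7 correlated at 0.004, -0.077 and 0.066, below the 0.152 of day 5 replicate 2 with day 7 replicate 1. The paper used a paired t-test for its miRNA read totals of day 7 against day 3. Depth limits SNAI2, CDH2 and ZEB2, with 34, 7 and 68 reads in all.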
